A study of Emiliania huxleyi CCMP1516 with 36 samples.

Results

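Cultures of the marine alga Emiliania huxleyi that received HHQ (2-heptyl-4-quinolone) at 10 ng/ml were compared with cultures that received only its solvent, 24 h after the addition. The 8 libraries, 4 in each group, were chosen by their labels out of 36, and all genes of the deposited table entered the comparison. Of 37212 genes 33272 had at least 1 count in the series, and 26494 had enough counts to be tested. A gene symbol is attached to 778 genes, 661 of them tested; the others carry identifiers only.

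Emiliania huxleyi is a single-celled alga of the coccolithophores, a group known for its calcite scales and large ocean blooms. HHQ is an alkylquinolone made by bacteria, in which it acts as a signal and as a precursor of other quinolones. DNA replication needs the polymerases alpha, delta and epsilon together with the clamp loader, replication factor C, and in eukaryotes the transcripts of these subunits commonly accumulate in cells that prepare for DNA synthesis. Light-harvesting Lhcf proteins bind chlorophyll and fucoxanthin and make up the antenna of the chloroplast in algae of this lineage.

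The cultures were of strain CCMP2090, without bacteria, in a seawater medium under 14 h of light and 10 h of dark. HHQ and vehicle cultures alike held dimethyl sulfoxide at 0.002%, which the parent cultures, sampled at time 0, did not. The remaining groups received HHQ at 1 or 100 ng/ml and were sampled after 24 h, and all 4 treatments were sampled again after 72 h. The hour of the light cycle at sampling is not given in the sources used here, and the labels name another strain, CCMP1516, as the organism. Polyadenylated RNA was sequenced in strand-specific libraries, and the deposit gives an estimated count for each gene.

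Totals ran from 17296339 to 35898343 counts in the vehicle libraries and from 12110242 to 42602884 with 10 ng/ml HHQ. The 100 most abundant genes of a library took 29.7 to 30.5% of its counts with vehicle and 23.1 to 24.3% with HHQ. Replicate 4 stood apart in both groups: the SD of its log2 deviations from the group mean was 0.708 with vehicle and 0.69 with HHQ, against 0.407 to 0.504 in the other 6 libraries. Counts and calls that change without it are named where they occur. Of 5 symbols of flagella and axonemes 4 had 0 counts in all 36 libraries, and ARL13 had 29 in all, so markers of a flagellated phase were at or near 0.

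Levels are CPM, counts scaled to a common library size, with factors from the trimmed mean of M values (TMM), each mean with its SD over 4 libraries. A log2 fold change is given with its standard error (SE). A gene is called higher or lower at an adjusted p under 0.05 in edgeR's quasi-likelihood test with Benjamini-Hochberg adjustment over all genes tested. Levels are not divided by transcript length, so they are compared between libraries and never between genes. In RNA from whole cultures, more cells with a transcript and more transcript per cell cannot be told apart.

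With 10 ng/ml HHQ at 24 h 1957 genes were higher (7.39% of those tested) and 1157 lower (4.37%) than with vehicle. The rises were the larger changes: 1221 of the raised genes were at least 2-fold and 564 at least 4-fold higher (2.13% of all tested), whereas 538 and 54 (0.204%) of the lowered genes passed the same sizes. Summed over the lowered genes, mean CPM came to 25.3% of the nominal CPM total with vehicle and 12.3% with HHQ. The raised genes together went from 2.61 to 5.57% on the same scale. These values are not shares of the counts, because TMM-scaled CPM of a library do not add up to the nominal total. The TMM factors were 0.67 to 1.097 with vehicle and 0.927 to 1.267 with HHQ. Among the 661 tested genes with a symbol 80 were higher (12.1%) and 74 lower (11.2%). Counts in the gene lists below are to be read beside these shares and those over all tested genes. In 1767 of the raised and 942 of the lowered genes the 4 HHQ libraries did not overlap the 4 vehicle libraries; among all tested genes, called or not, this was so for 2730 (10.3%) upwards and 1897 (7.16%) downwards.

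The balance of higher and lower calls moved with the scaling. Under library totals the middle gene of all tested had a log2 fold change of 0.262, under TMM −0.00946, and the calls were 1825 higher and 286 lower. Replicate numbers paired the libraries, and with the number as a block 2816 genes were higher and 2452 lower. With replicates 1 to 3 alone 1687 were higher and 792 lower.

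**Figure D1:**
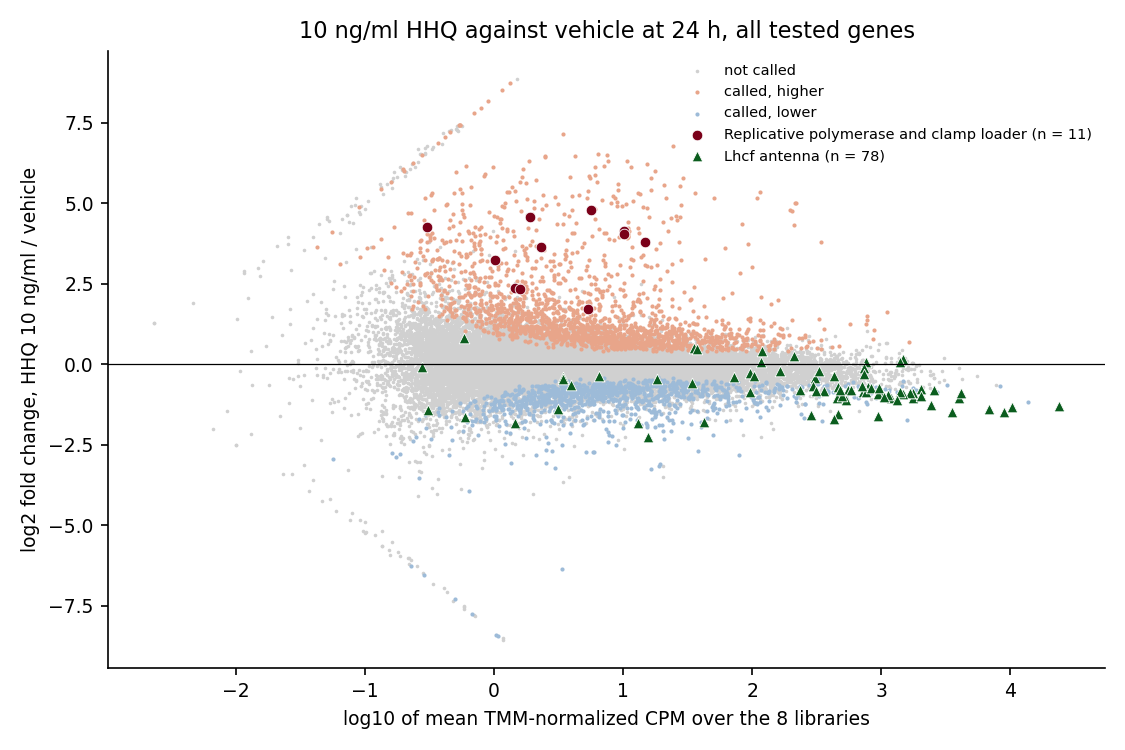
Log2 fold change (HHQ 10 ng/ml over vehicle at 24 h, vertical axis) against the log10 of the mean TMM-normalized CPM over the 8 libraries, 1 point per tested gene, with called genes in colour. The 11 subunits of the replicative polymerases and the clamp loader lie far above 0, and most of the 78 Lhcf antenna genes lie below 0 at the right, where abundant genes are.

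All 11 tested subunits of the replicative polymerases and the clamp loader were higher with 10 ng/ml HHQ, by a median log2 fold change of 3.81, against −0.00946 over all tested genes. None of the 11 overlapped between the groups. Together they took 0.0109, 0.0154, 0.0104 and 0.0098% of the counts of HHQ replicates 1 to 4. In the vehicle libraries the share lay between 0.000742 and 0.000908%. POLAI, a polymerase symbol that could not be placed in any of these complexes and was kept out of the 11, was at 14.4 ± 1.24 CPM with HHQ and 14.8 ± 2.20 with vehicle.

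POLE1, the catalytic subunit of polymerase epsilon, which copies the leading strand, stood at 0.289, 0.264, 0.453 and 0.543 CPM in vehicle replicates 1 to 4. With HHQ its 4 values were 9.97, 14.1, 9.02 and 10.2 CPM. Every HHQ library thus lay far above every vehicle library, and the fold was 27.7 (log2 4.79 ± 0.40, adjusted p = 1.45e-10). POLE3, a small subunit of the same enzyme, rested on 47 counts in the HHQ libraries and 2 in the vehicle libraries, a ratio of 22.5 with a 95% interval of 5.88 to 191 for counting error only. Its call (log2 4.27 ± 1.26, adjusted p = 0.0216) was lost without vehicle replicate 1, 2 or 3, at adjusted p = 0.0755, 0.061 and 0.086.

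Polymerase delta, which synthesizes the lagging strand, gave the same picture in its catalytic subunit, present as the similarly named copies POLD1-1 and POLD1-2. POLD1-1 had 1.05, 1.00, 1.04 and 1.29 CPM in the vehicle cultures and 16.9, 23.9, 15.2 and 21.1 CPM with HHQ. The vehicle values were nearly equal, the HHQ values were all far higher, and the rise was 17.6-fold (log2 4.14 ± 0.27, adjusted p = 4.15e-13). POLD1-2 rose 16.6-fold, from 1.15 ± 0.268 to 19.1 ± 3.73 CPM. Reads of such copies can be shared between them, so the value of each alone is uncertain. POLD2, the regulatory subunit, rose 12.5-fold, from 0.331 ± 0.097 to 4.32 ± 0.837 CPM.

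Polymerase alpha, which starts each new strand with its primase, showed the same direction in both measured subunits. POLA1, the catalytic subunit, went from 1.95, 2.43, 1.47 and 2.11 CPM to 24.2, 34.3, 22.6 and 29.4 CPM, 14.0-fold (log2 3.81 ± 0.27, adjusted p = 2.01e-12). The groups did not overlap for it or for POLA2, its regulatory partner, which rose 5.14-fold from 0.485 ± 0.201 CPM.

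The clamp loader, which opens the sliding clamp and sets it on DNA, was raised less evenly. RFC3 rose 23.8-fold, from 0.144 ± 0.117 to 3.69 ± 1.16 CPM, with 0 CPM in vehicle replicate 1. RFC2 rose 9.43-fold and RFC5 5.02-fold. RFC1, the large subunit, had the smallest rise of the 11, 3.32-fold (log2 1.73 ± 0.19, adjusted p = 6.04e-08), from 2.42, 1.90, 2.35 and 3.26 CPM to 6.17, 8.92, 7.37 and 10.5 CPM. Even there the lowest HHQ library was above the highest vehicle library.

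**Figure D2:**
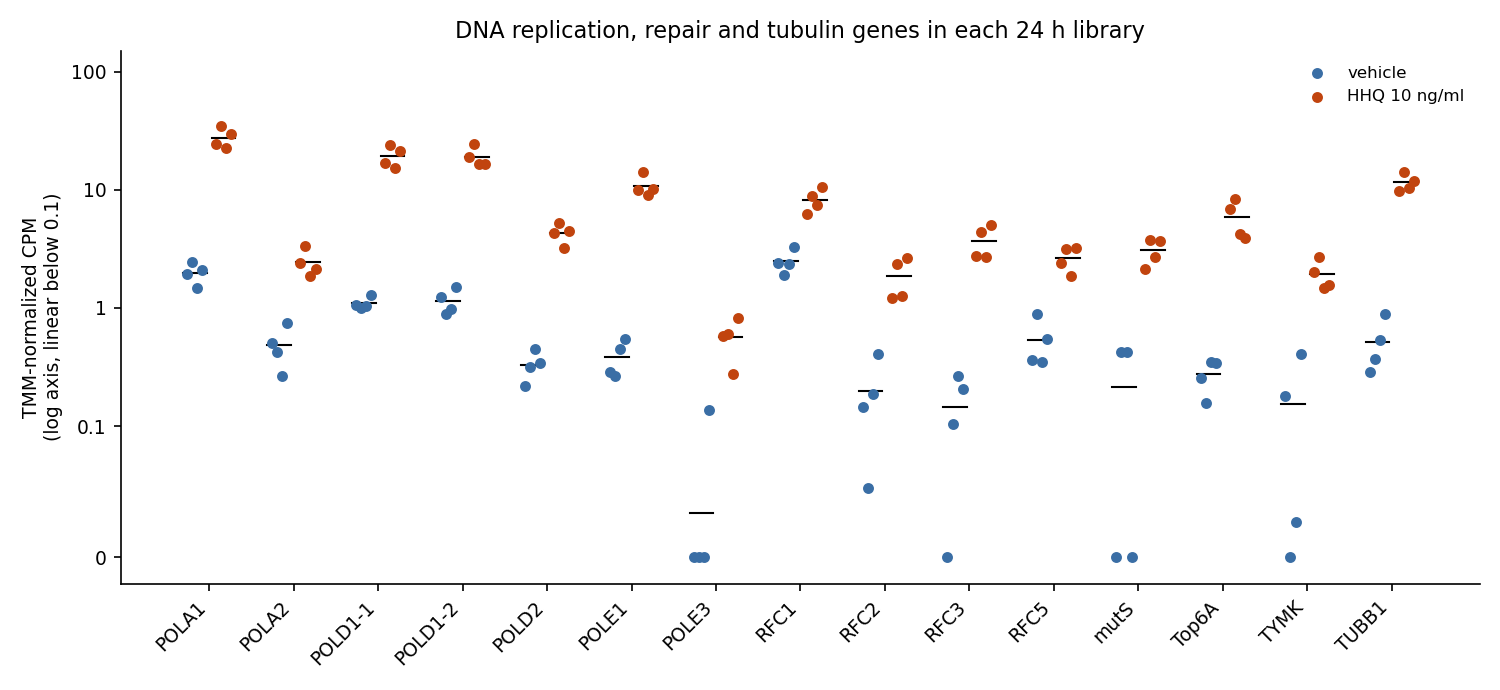
TMM-normalized CPM (log axis, linear below 0.1) of 15 genes of DNA replication, repair, nucleotide supply and tubulin in each of the 4 vehicle and 4 HHQ 10 ng/ml libraries at 24 h; points are libraries and black lines group means. For each of the 15 genes the HHQ points lie above the vehicle points, from POLA1 at 22.6 to 34.3 CPM down to POLE3 at 0.278 to 0.818 CPM. Only genes called higher were drawn, so for mutS, Top6A, TYMK and TUBB1 this separation follows from the choice. The uncalled repair genes Top6B, Spo11, DMC1, MER2 and MER3 and the lowered TBCD are not shown.

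The other DNA polymerases, mostly named for translesion synthesis and repair, were mostly not called. Of 6 tested 1 was higher and 0 lower, with a median of 0.714. For 3 of the 6 the groups did not overlap upwards, against 10.3% of all tested genes. At an unadjusted p under 0.05 in edgeR 3 were higher and 0 lower. POLS was at 0.927 CPM with HHQ and 0.434 with vehicle (log2 1.13 ± 0.49, adjusted p = 0.142). POLV was at 1.37 ± 0.137 CPM with HHQ and 0.373 ± 0.152 with vehicle, a 3.76-fold rise. POLQ had 0.887 ± 0.453 against 0.199 ± 0.173 CPM (adjusted p = 0.176) and POLI 5.15 ± 1.39 against 4.22 ± 1.84 (adjusted p = 0.574).

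Of 9 genes of DNA repair and recombination 4 were higher and 0 lower, and the list's median log2 fold change was −0.0822. Top6A, the DNA-cleaving subunit of topoisomerase VI, had 0.253, 0.158, 0.347 and 0.340 CPM with vehicle and 6.93, 8.31, 4.21 and 3.92 CPM with HHQ. That was a 20.6-fold rise with no overlap (log2 4.36 ± 0.45, adjusted p = 1.17e-08), although the HHQ replicates 1 and 2 stood well above 3 and 4. The mismatch repair gene mutS rose 12.9-fold, from 0.212 ± 0.245 CPM with 0 in vehicle replicates 1 and 4.

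The partner subunit Top6B was at 3.12 ± 0.402 CPM with HHQ and 4.45 ± 0.777 with vehicle, and was not called (adjusted p = 0.201). Genes named for meiotic recombination were not called by edgeR without the block. DMC1, a strand-exchange protein of meiosis, was at 1.78 ± 0.75 against 1.86 ± 0.336 CPM, and the log2 difference was −0.08 ± 0.34. Spo11, which makes meiotic breaks, was at 0.906 ± 0.329 against 1.84 ± 0.547 CPM (log2 −0.98 ± 0.36, adjusted p = 0.0778). It passed as lower with the replicate block (adjusted p = 0.0146), with the block on only the groups compared (0.0243) and in DESeq2 (0.0369). MER2 and MER3 had log2 fold changes of −0.31 ± 0.46 and −0.15 ± 0.29.

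Single genes of nucleotide supply and of the cytoskeleton were raised as well. TYMK, thymidylate kinase, which makes the diphosphate on the way to the DNA precursor, rose 13.9-fold, from 0.154 ± 0.187 to 1.93 ± 0.557 CPM. TUBB1, a beta-tubulin, went from 0.289, 0.369, 0.533 and 0.883 CPM to 9.83, 14.2, 10.4 and 11.8 CPM, 22.8-fold (log2 4.51 ± 0.74, adjusted p = 5.51e-05). All 4 HHQ libraries were far above the highest vehicle library. TBCD, a cofactor that folds beta-tubulin, moved the other way, 2.13-fold lower at 1.59 ± 0.223 against 3.42 ± 1.13 CPM; under library totals this call was lost. The cyclin-dependent kinase genes CDKA and CDKD2 were not called, CDKA at log2 0.77 ± 0.97.

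**Figure D3:**
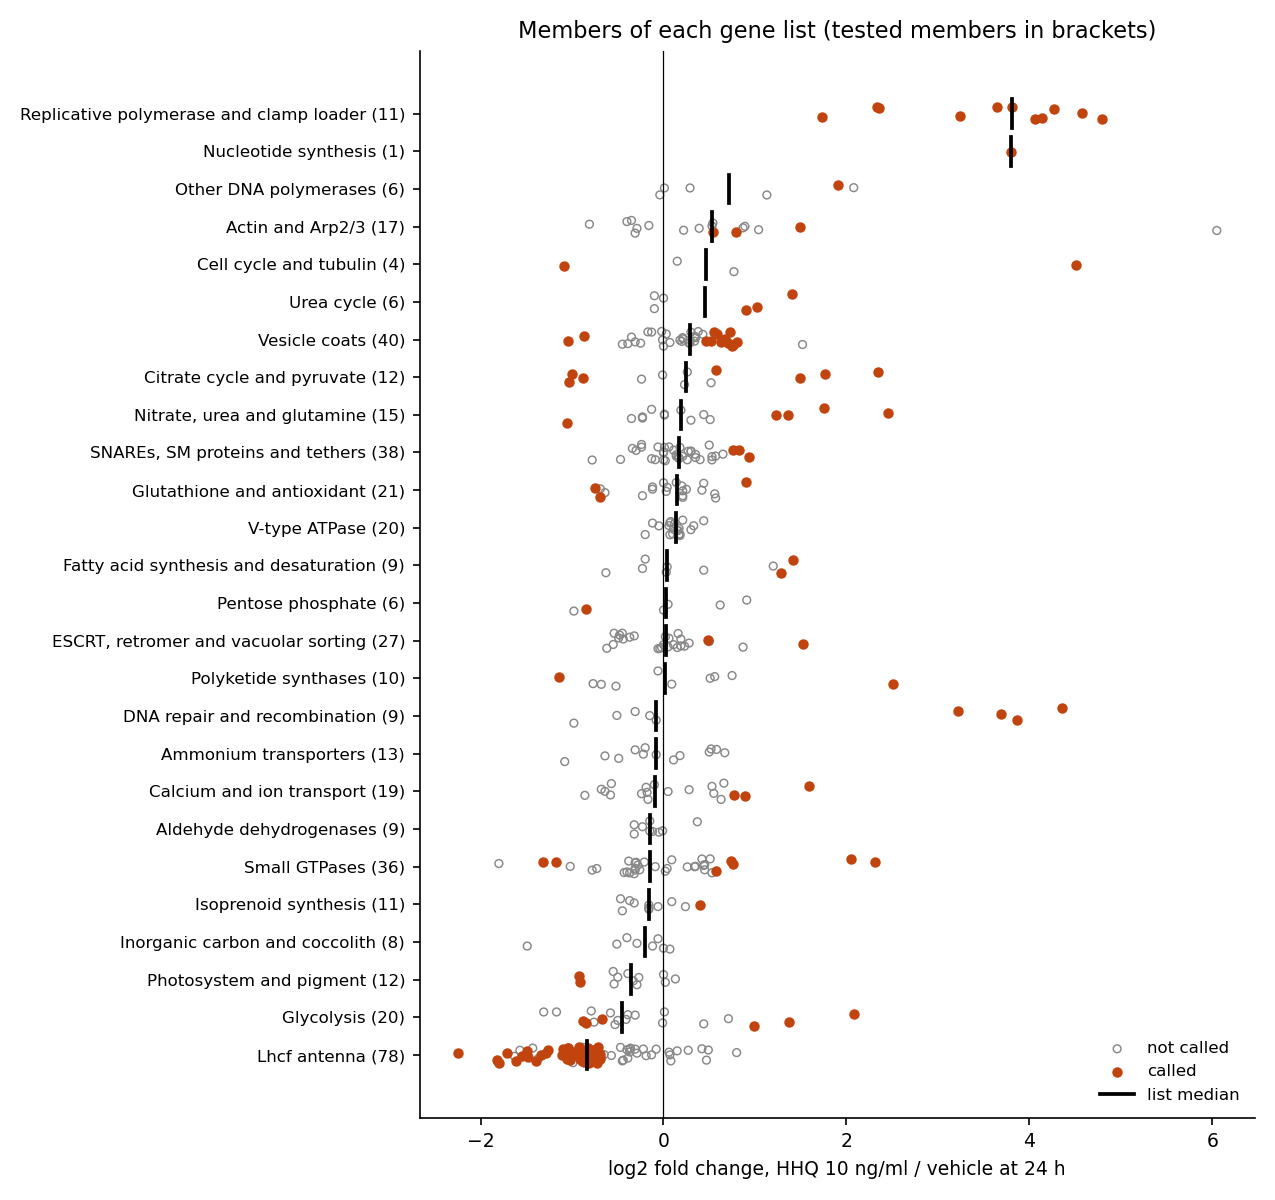
Log2 fold change (HHQ 10 ng/ml over vehicle at 24 h) of each tested member of 26 gene lists, filled where called, with a bar at each list's median. The subunits of replicative polymerases and the clamp loader have the highest median, 3.81, beside the 1 nucleotide synthesis gene at 3.80, and Lhcf genes have the lowest, −0.833.

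Antenna genes fell. Of 78 tested Lhcf genes 45 were lower and 0 higher. The median of the family was −0.833 on the log2 scale, and 48 had no overlap downwards against 1 upwards. With library totals 28 were lower at a median of −0.549, with replicates 1 to 3 alone 42 were, and with the replicate block 49 were lower and 3 higher. The family took 13.5, 14.3, 13.3 and 12.8% of the counts of the 4 vehicle libraries. In the HHQ libraries it took 7.23, 7.60, 8.44 and 7.80%, so that the highest HHQ share was below the lowest vehicle share. Copies within the family can share reads, and single members are therefore uncertain.

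Lhcf32 was at 29758, 30678, 26762 and 49428 CPM with vehicle and 11214, 11917, 13802 and 18768 CPM with HHQ. Replicate 4 was the highest in both groups, and the gene was 2.45-fold lower (log2 −1.29 ± 0.27, adjusted p = 0.000908). The groups did not overlap, which the rule for naming the gene required. Lhcf39_2 varied little between libraries, with 634 to 729 CPM in the vehicle group and 193 to 215 CPM in the HHQ group. It was 3.27-fold lower (log2 −1.71 ± 0.21, adjusted p = 3.06e-07). Lhcf38 showed the largest fall among called members, 4.76-fold, from 26 ± 12.4 to 5.51 ± 2.99 CPM.

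The falls among called members ran from there down to 1.61-fold. Lhcf21_1 was 2.79-fold, Lhcf24 2.80-fold, Lhcf20_2 3.06-fold and Lhcf65 2.62-fold lower. Lhcf22 and Lhcf74 were 3.54-fold and 3.49-fold lower, and the call of Lhcf74 was lost without vehicle replicate 3 or HHQ replicate 1 or 2 (adjusted p from 0.0533 to 0.0595) and under library totals (0.0766). Not every member was called: Lhcf43 was at 1544 CPM with HHQ and 1391 with vehicle. Lhcf57 had the highest log2 fold change of the family, 0.80 ± 0.55, and was not called.

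**Figure D4:**
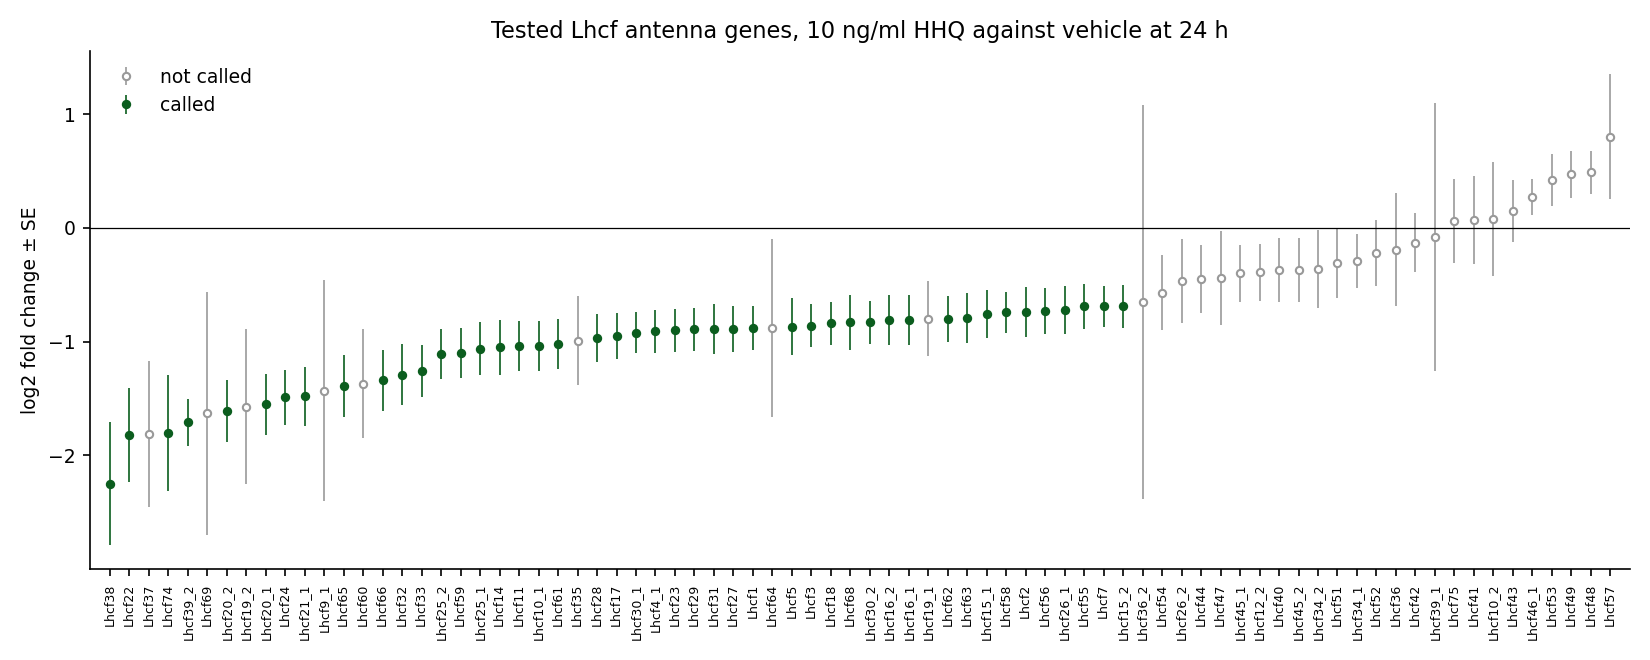
Log2 fold change ± SE of the 78 tested Lhcf genes (HHQ 10 ng/ml over vehicle at 24 h), ordered by size, filled where called. All 45 called members lie below 0, Lhcf38 lowest at −2.25, and the members above 0 are all uncalled.

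Photosystem and pigment genes moved less. Of 12 tested 2 were lower and 0 higher, with a median of −0.358, and 8 had no overlap downwards. Over all tested genes 4.37% were lower and 7.16% had no overlap downwards. The 2 called were PSBO-1 and PSBO_2, similarly named genes of the oxygen-evolving complex's manganese-stabilizing subunit. The PSBO-1 call was lost under library totals (adjusted p = 0.0531). PSBO_2 went from 2049 to 2585 CPM across the vehicle libraries to 1048 to 1377 CPM with HHQ, 1.90-fold lower (log2 −0.92 ± 0.20, adjusted p = 0.00199). PSAE of photosystem I was at 306 against 432 CPM (adjusted p = 0.0865), and genes of the violaxanthin de-epoxidase symbols VDE, VDE2 and VDE3 were not called.

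In glycolysis and in the citrate cycle genes were called in both directions. In glycolysis 3 of 20 tested genes were higher, 3 lower and 14 not called, with a median of −0.453. Such shares are near the 12.1% higher and 11.2% lower of all tested genes with a symbol. With the replicate block 4 were higher and 8 lower, and with library totals 3 and 0. GAPN, a glyceraldehyde-3-phosphate dehydrogenase that makes NADPH without a phosphate step, rose 4.24-fold (log2 2.08 ± 0.55, adjusted p = 0.00992). Its libraries scattered, at 274, 286, 114 and 84.8 CPM with HHQ against 67.5, 53.4, 17.1 and 41.2 CPM with vehicle. 16PFK1, named as a phosphofructokinase, rose 2.59-fold from 64.2 ± 32.7 CPM, and PGK1, a phosphoglycerate kinase, 1.98-fold from 4.66 ± 0.96 CPM. The kinase gene PGK_1 was 1.8-fold lower, at 1944 against 3499 CPM, a call lost under library totals.

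In the citrate cycle and at pyruvate 4 of 12 tested genes were higher and 3 lower. PYC1, a pyruvate carboxylase, which refills oxaloacetate, had 1.95, 2.00, 1.89 and 2.58 CPM with vehicle and 6.93, 9.99, 12.4 and 13.3 CPM with HHQ. It rose 5.08-fold with no overlap (log2 2.34 ± 0.28, adjusted p = 2.96e-07). FH, fumarate hydratase, rose 2.82-fold from 5.70 ± 0.631 to 16.1 ± 3.09 CPM, and IDH1, an isocitrate dehydrogenase, 3.41-fold. ICL1, isocitrate lyase of the glyoxylate shunt, was 1.84-fold lower at 274 ± 40.5 against 505 ± 124 CPM, a call lost under library totals. In the pentose phosphate pathway 6PGL, a phosphogluconolactonase, was the 1 called gene of 6, 1.81-fold lower under TMM and not called under library totals.

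Nitrate assimilation and the urea cycle held raised genes. NRT1, a nitrate transporter, went from 33.2, 28, 26.5 and 43.6 CPM to 99.7, 104, 71.1 and 63.2 CPM, 2.57-fold (log2 1.36 ± 0.36, adjusted p = 0.00892). NII1, nitrite reductase, rose 3.38-fold, from 5.40 ± 1.47 to 18.2 ± 5.02 CPM. The nitrate reductase symbols NAR1 to NAR4 were not called, with log2 fold changes from −0.35 to 0.51. Glutamine synthetase genes went both ways: GLN4 was 2.08-fold lower at 593 ± 90.6 against 1232 CPM, while GLN2 rose 5.50-fold at 1.03 ± 0.633 against 0.192 ± 0.12 CPM. The GLN4 call was lost under library totals, and the GLN2 call without vehicle replicate 1 or 3 (adjusted p = 0.0623 and 0.0636) and with replicates 1 to 3 alone (0.0586). Of 15 tested genes of nitrate, urea and glutamine 4 were higher and 1 lower.

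Of 6 urea cycle genes 3 were higher and 0 lower, at a median of 0.453. CPS1, a carbamoyl phosphate synthetase, rose 1.87-fold from 179 ± 20.8 to 335 ± 38.3 CPM. The argininosuccinate lyase genes ASL1 and ASL2 rose 2.02-fold and 2.64-fold. ASS1, the step before them, was at 395 against 424 CPM and not called. Ammonium transporters gave 0 calls among 13 tested genes in edgeR, 0 at an unadjusted p under 0.05, 0 in DESeq2 and 1 lower with the replicate block.

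Lipid genes were mostly uncalled. Of 9 tested genes of fatty acid synthesis and desaturation 2 were higher, FADS1 and FADS2, both desaturase symbols. FADS1 rose 2.43-fold, from 75.7, 64.3, 73.8 and 70.6 CPM to 208, 210, 150 and 124 CPM (log2 1.28 ± 0.20, adjusted p = 1.99e-05). FADS2 rose 2.67-fold, and for both genes HHQ replicates 1 and 2 were above replicates 3 and 4. Polyketide synthases are large enzymes that build carbon chains in steps like those of fatty acid synthesis. Of 10 tested 1 was higher and 1 lower, and with the replicate block 3 and 2. Single calls among 10 genes are close to the 7.39% higher and 4.37% lower of all tested genes. PKS5 rose 5.69-fold, from 3.69, 3.64, 1.25 and 3.74 CPM to 20.1, 22.9, 9.88 and 16.8 CPM (adjusted p = 7.37e-07), and PKS3 was 2.20-fold lower at 334 ± 84.5 against 734 ± 125 CPM, a call lost under library totals. MVK2, a mevalonate kinase, was the 1 called gene of 11 for isoprenoids, at 1.32-fold, and lost its call without each vehicle or HHQ library but vehicle replicate 4. A share of 1 in 11 is near the 7.39% of all tested genes called higher.

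Called vesicle coat genes moved by small folds, at most 2.06-fold. Of 40 vesicle coat genes 11 were higher and 2 lower, with a median of 0.289, and with library totals 11 and 0. AP2A-1, an alpha subunit of the clathrin adaptor of endocytosis, was at 92.8, 86.6, 89.7 and 72.3 CPM with vehicle and 147, 155, 139 and 132 CPM with HHQ. This 1.68-fold rise (log2 0.75 ± 0.12, adjusted p = 3.51e-05) left a clear gap between the groups. AP2A-2, COPG1-2 of the Golgi coat COPI and SEC24B of the endoplasmic reticulum coat COPII rose 1.66-fold, 1.63-fold and 1.69-fold.

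Vesicle fusion and tethering gave 3 higher and 0 lower of 38, namely Vps45, COG3 and COG7, a share near the 7.39% of all tested genes called higher. Vps45, a regulator of endosomal fusion, rose 1.92-fold from 25.6 ± 2.05 to 49.2 ± 6.94 CPM. COG7 rose 1.69-fold (adjusted p = 0.0472) but fell short of the threshold without any of the libraries except HHQ replicate 4. In the sorting machinery of endosomes 2 of 27 were higher and 0 lower: VPS46A, an ESCRT-III protein, by 2.86-fold from 7.36 ± 1.37 to 21.1 ± 4.17 CPM, and the retromer gene VPS26 by 1.40-fold. A share of 2 in 27 is near the 7.39% of all tested genes called higher. The VPS26 call (adjusted p = 0.0275) was lost without vehicle replicate 1, 2 or 4 or HHQ replicate 2 or 3 (adjusted p from 0.0678 to 0.0848), with replicates 1 to 3 alone (0.0944) and under library totals (0.0693).

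Small GTPases, switches of traffic and signalling, gave 5 higher and 2 lower of 36; with the replicate block the numbers were 7 and 4, with library totals 8 and 0, and the median turned from −0.153 to 0.131. Arf4-1 went from 19.6, 17.7, 18.3 and 37.9 CPM to 80.5, 86.2, 105 and 115 CPM, 4.13-fold (log2 2.05 ± 0.25, adjusted p = 2.85e-07). Arf4-2 rose 4.95-fold, and reads of the 2 copies cannot be fully separated. ARL1 and Rab5a rose 1.69-fold and 1.68-fold. The V-type ATPase, which acidifies compartments, gave 0 calls of 20 in edgeR, with log2 fold changes from −0.20 to 0.44. At an unadjusted p under 0.05 1 was higher, DESeq2 called 0, and library totals called 1 higher.

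Of 17 actin and Arp2/3 genes 3 were higher and 0 lower, and with the replicate block 8 and 1. ADF, an actin-depolymerizing factor, rose 2.80-fold, from 379, 333, 422 and 495 CPM to 1087, 1275, 995 and 1211 CPM (log2 1.49 ± 0.25, adjusted p = 8.63e-05). ACT-7 and ARPC3 were 1.73-fold and 1.45-fold higher, and each lost its call without any of several single libraries (adjusted p up to 0.153 and 0.21); with replicates 1 to 3 alone the values were 0.113 and 0.0513. Of 19 genes for calcium and ion transport 3 were higher and 0 lower, and with the block 6 and 3. NHA1, a sodium and proton antiporter symbol, rose 3.02-fold from 2.06 ± 0.562 to 6.21 ± 2.19 CPM.

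Genes linked to calcification and carbon uptake gave 0 calls of 8 in edgeR, 2 lower at an unadjusted p under 0.05, and 1 lower in DESeq2 and with the replicate block. CA1, a carbonic anhydrase, was at 19.8 against 55.8 CPM (log2 −1.49 ± 0.52, adjusted p = 0.0557), and GPA, named for a calcium-binding coccolith protein, at 921 against 1128 CPM (adjusted p = 0.774). Of 21 glutathione and antioxidant genes 1 was higher and 2 lower, and with the block 2 and 2. Over all tested genes the shares without the block were 7.39% higher and 4.37% lower. SOD2A, a superoxide dismutase, rose 1.86-fold from 115 ± 14.9 to 214 ± 25.1 CPM, while GSH1 and GSH5 were 1.68-fold and 1.61-fold lower, calls lost under library totals. The GSH1 call was also lost without vehicle replicate 1 or 3 or HHQ replicate 1, 2 or 4 (adjusted p from 0.0537 to 0.103) and with replicates 1 to 3 alone (0.0566). Aldehyde dehydrogenases gave 0 calls of 9 in edgeR, 0 at an unadjusted p under 0.05 and 0 in DESeq2.

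Among genes with a symbol outside these lists the largest fall was that of PTA1, for which no role is given here. It went from 28.6, 34.6, 21 and 55.6 CPM to 5.23, 6.17, 5.26 and 11.2 CPM, 5.05-fold lower (log2 −2.34 ± 0.40, adjusted p = 9.47e-05). TPT was 2.56-fold lower at 1.79 ± 0.384 against 4.61 ± 1.47 CPM, a call lost under library totals, and MIP2 2.21-fold lower at 49.5 ± 15 against 110 ± 33.6 CPM. The MIP2 call was lost without vehicle replicate 4 or HHQ replicate 1 or 2 (adjusted p from 0.0545 to 0.0755).

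The largest changes of all belonged to genes with no symbol. EMIHUDRAFT_449680 was at 0.614, 0.369, 0.213 and 0.611 CPM with vehicle and 52.6, 59.8, 38.8 and 43.0 CPM with HHQ. The fold was 110 (log2 6.78 ± 0.45, adjusted p = 7.14e-13). Its lowest HHQ library was far above its highest vehicle library, but the rule for naming it required a lack of overlap. EMIHUDRAFT_115273 rose 142-fold, from 0.0459 ± 0.0182 to 6.76 ± 1.01 CPM, and EMIHUDRAFT_209016 92.4-fold, from 0.13 ± 0.118 to 12.6 ± 3.44 CPM.

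For EMIHUDRAFT_447150, with 278 counts against 0 in the vehicle libraries, the rise was at least 88.5-fold with the vehicle group set at a floor of 3 counts. Its call was lost in DESeq2 on all libraries (adjusted p = 0.106). In edgeR it was lost without vehicle replicate 1, 2 or 3 (adjusted p from 0.0572 to 0.0713) and with replicates 1 to 3 alone (0.0684). In all, 20 raised genes had 0 counts in the whole vehicle group, and 6 lowered genes had 0 in the whole HHQ group. EMIHUDRAFT_438326 was one of these 6, with 217 counts in the vehicle libraries, at least 75.7-fold lower. EMIHUDRAFT_420021 and EMIHUDRAFT_417528 were 9.55-fold and 9.01-fold lower, from 29.7 ± 9.85 and 34.4 ± 8.70 CPM. EMIHUDRAFT_444926 had 0.289, 1.11, 4.93 and 20.6 CPM with vehicle, and its call was lost without vehicle replicate 4 (adjusted p = 0.0524).

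The 24 h response was set against the same dose at 72 h by testing the difference between the 2 responses, each against its own vehicle group. This interaction was called in 381 genes (1.44%), 54 more positive at 72 h (0.204%) and 327 more negative (1.23%). With the replicate block these numbers were 249 and 520. Among the subunits of replicative polymerases and the clamp loader 6 of 11 were more negative at 72 h, with a median difference of −2.45 against 0.000847 over all tested genes. This list and the Lhcf list were chosen with earlier results of these data known. Such a choice can favour a smaller response at 72 h, so list and all-gene values are not strictly comparable. POLE1 was at 1.17 ± 0.289 CPM with HHQ at 72 h and 0.393 ± 0.205 with vehicle, and its response was smaller by 3.24 ± 0.60 on the log2 scale (adjusted p = 0.00138). POLD1-1, POLD1-2, POLA1 and POLD2 differed by −2.75, −2.91, −2.73 and −2.45, and RFC1 by −1.54.

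The interaction for Top6A was −1.52 ± 0.72 and was not called (adjusted p = 0.49). Of the Lhcf genes 1 of 78 was more positive at 72 h, with a median of 0.793: Lhcf39_2, by 1.13 ± 0.29 (adjusted p = 0.0323). Its call was lost in 8 of the 16 fits that left out 1 library. At 72 h the family took 9.19 ± 1.08% of counts with 10 ng/ml HHQ and 9.77 ± 0.992% with vehicle.

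Doses were compared directly at 24 h, by contrasts between HHQ groups; the vehicle libraries enter only the filter, the scaling and the shared estimate of spread. These contrasts share the HHQ 10 ng/ml libraries with the comparison against vehicle, so the values stand side by side and are not independent of it. Between 10 and 1 ng/ml 6735 genes differed (25.4%), 3826 higher at 10 ng/ml (14.4%) and 2909 lower (11%). Under library totals 7864 were higher and 791 lower. The lower count was 1687, 1540 and 1764 without HHQ 10 replicates 1, 2 and 3, and 1533 and 1772 without HHQ 1 replicates 2 and 4. Of the 11 subunits of replicative polymerases and the clamp loader 10 were higher at 10 ng/ml, with a median of 3.43 against 0.0915 over all tested genes, and POLE3 was not called (adjusted p = 0.0884). RFC3 was at 3.69 ± 1.16 CPM at 10 ng/ml and 0.182 ± 0.13 at 1 ng/ml, 22-fold apart (log2 4.46 ± 0.62, adjusted p = 3.31e-06). Top6A was 16.7-fold higher at 10 ng/ml. Lhcf genes were lower at 10 ng/ml in 48 of 78 cases and higher in 3, Lhcf38 by 9.15-fold.

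Between 100 and 10 ng/ml 4947 genes differed (18.7%), 2516 higher at 100 ng/ml (9.5%) and 2431 lower (9.18%). Without replicate 4 of the 10 ng/ml cultures the numbers were 1534 and 1616, without replicate 2 of the 100 ng/ml cultures 1665 genes were higher, and with the replicate block 4145 were higher and 4925 lower. Under library totals 5282 were higher and 1157 lower, and in a fit of only these groups 3822 were lower. Replication genes were lower at the higher dose in 8 of 11 cases and higher in 0, with a median of −2.95 against 0.0572 over all tested genes. POLD1-1 was at 19.3 ± 3.97 CPM at 10 ng/ml and 0.82 ± 0.219 at 100 ng/ml, 23.4-fold lower (log2 −4.55 ± 0.27, adjusted p = 1.47e-13). POLA1 was 15.7-fold lower at 100 ng/ml. RFC1 did not pass, at 10.2 ± 1.51 CPM at 100 ng/ml (log2 0.32 ± 0.18, adjusted p = 0.218).

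Other genes went further in the same direction at the higher dose. PKS5 was 3.87-fold higher at 100 than at 10 ng/ml, at 67.2 ± 6.24 CPM, and Arf4-1 2.42-fold. Lhcf genes were lower at 100 ng/ml in 51 of 78 cases and higher in 3, with a median of −1.15, and Lhcf32 was at 2888 ± 618 CPM. VPS34-1, named for a phosphatidylinositol 3-kinase, which was not called at 10 ng/ml against vehicle (adjusted p = 0.122), was 4.19-fold higher at 100 than at 10 ng/ml. POLS was 2.72-fold higher at 100 ng/ml, a call lost with replicates 1 to 3 alone (adjusted p = 0.105) and without any of 5 single libraries (adjusted p from 0.0509 to 0.0617).

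Across all groups POLE1 was highest in the parent cultures, at 21.8 ± 0.913 CPM, then with 10 ng/ml HHQ at 24 h, at 10.8 ± 2.23, and with 100 ng/ml at 72 h, at 5.63 ± 1.22. The levels 0.387 ± 0.134 with vehicle at 24 h, 0.393 ± 0.205 with vehicle at 72 h and 0.627 ± 0.299 with 1 ng/ml at 24 h, lay within each other's spread. For Top6A the order was different. Its parent level was 1.42 ± 0.537 CPM and its level with 100 ng/ml at 72 h 3.44 ± 0.699, against 5.84 ± 2.13 with 10 ng/ml at 24 h. The 11 replication subunits together took 0.0123 ± 0.00543% of counts with 100 ng/ml at 72 h. Their share was 0.0116 ± 0.00253% with 10 ng/ml at 24 h and 0.0158 ± 0.00244% in the parent cultures. The 564 genes raised at least 4-fold had a median level of 2.74 CPM with 10 ng/ml and 0.25 with vehicle at 24 h. With 100 and 1 ng/ml at 24 h their median was 0.881 and 0.301 CPM, and in the parent cultures 1.11. At 72 h it was 1.88 CPM with 100 ng/ml, 0.754 with 10 ng/ml, 0.398 with 1 ng/ml and 0.416 with vehicle. These genes were chosen by the first 2 of these levels, so that contrast is no result, and the other medians are a description.

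**Figure D5:**
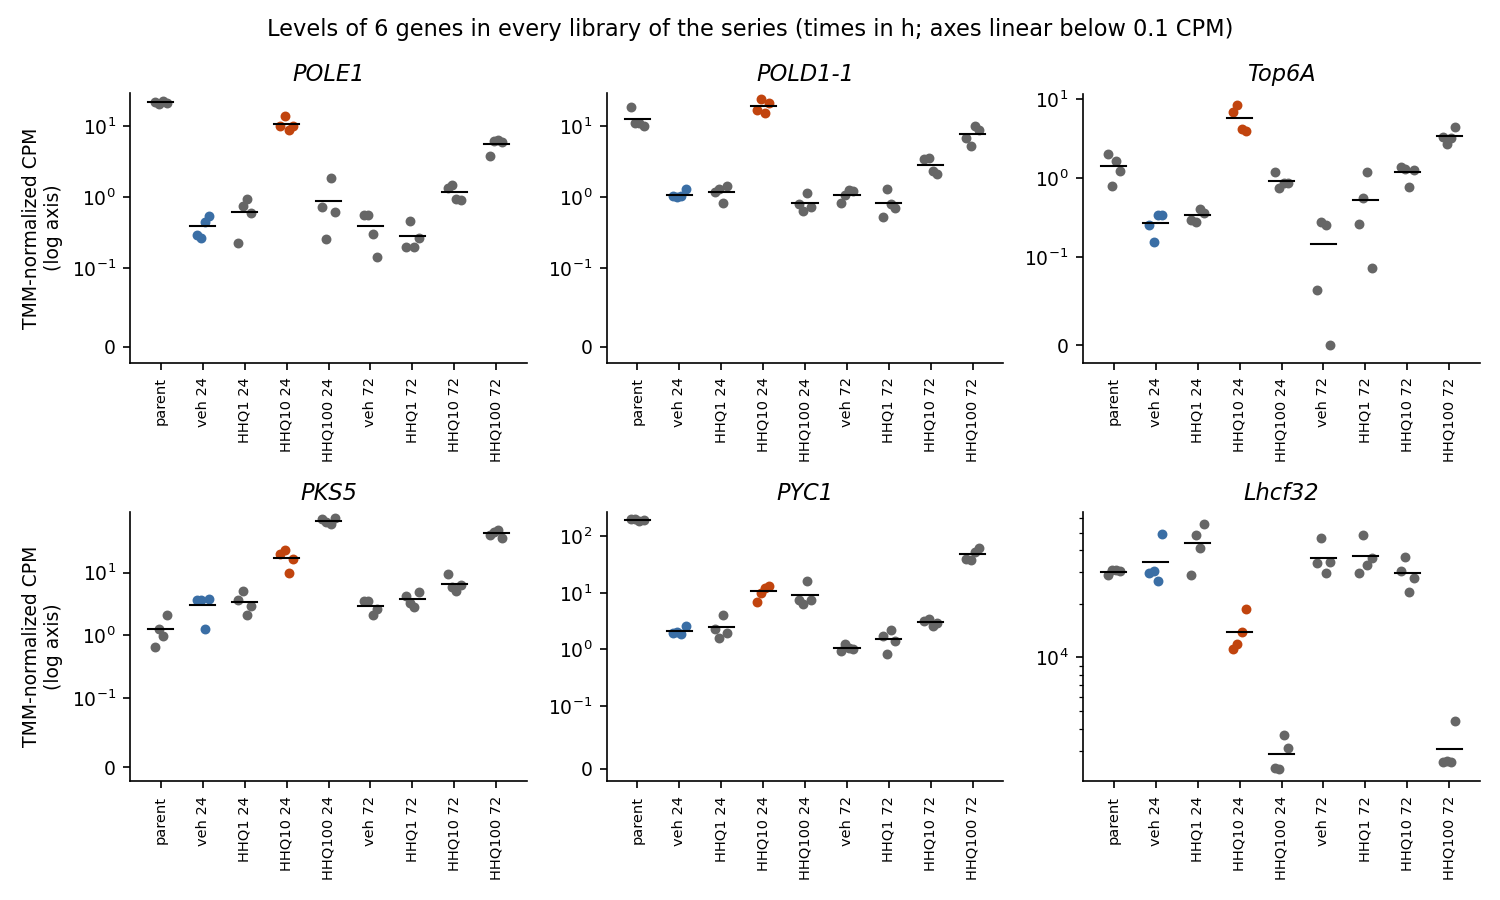
TMM-normalized CPM (log axes, linear below 0.1) of 6 genes in every library of the 9 groups, with group means as lines; vehicle at 24 h is blue and HHQ 10 ng/ml at 24 h orange. POLE1, POLD1-1 and PYC1 are high in the parent cultures too, whereas Top6A is highest with 10 ng/ml at 24 h, and PKS5 and Lhcf32 lie farther from vehicle with 100 than with 10 ng/ml.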

How the data were processed

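Per the submitters' processing notes, reads were trimmed with Trimmomatic 0.38 and quantified with Salmon 0.12.0. Which reference transcripts and settings served is not given in the sources used here. A table that the authors deposited holds Salmon's estimated count of each gene and library, 45.8% of them not whole, rounded here for the tests. Salmon divides reads between similar transcripts, so similar copies are uncertain singly. Symbols are those that the deposited table uses as identifiers. A RefSeq table of strain CCMP1516 held 37202 of the 37212 identifiers. Roles are those usually attached to a symbol and were not checked against sequence.

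Genes were filtered with filterByExpr, scaled by TMM and fitted as 9 group means over all 36 libraries with edgeR 4.0.16 (R 4.3.3, limma 3.58.1). Quasi-likelihood F tests gave p-values, adjusted by Benjamini-Hochberg over 26494 genes. The SE is the log2 fold change divided by the square root of F. DESeq2 1.42.0, other scalings and filters, a replicate block and leaving out libraries were alternatives. On simulated counts for the comparison with vehicle, over 26494 genes, 84% of 4-fold and 26% of 2-fold changes were recovered, with 4 false calls. The changed genes all had a mean of at least 1 CPM, and the libraries were drawn without pairing. Recovery for genes at lower levels, and recovery and false calls with paired libraries, were not tested.

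Replicate numbers in the labels paired the vehicle and 10 ng/ml libraries at 24 h by the data: deviations from the group means correlated at 0.174 to 0.5 in all 4 pairs. The 0.5 was that of replicate 4, and pairs of unlike number ran from −0.38 to 0.158. Pairs of like number were also all positive between 100 and 10 ng/ml (0.12 to 0.422) and at 72 h (0.201 to 0.438). At 72 h 3 of the 4 HHQ libraries correlated best with their own number. Between 10 and 1 ng/ml the pairs were not all positive (−0.0668 to 0.306). No replicates of a group agreed within sampling noise: over the 54 pairs within groups the chi-square per gene ran from 5.61 to 211. The replicates are separate cultures per the labels. Intervals and floors (3 counts) cover counting error only.

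Genes named are, by rule, the 15 largest called rises and falls with a symbol and the 5 without one. The rule also takes the 5 largest in each direction of the other comparisons. All of these had a mean of at least 1 CPM and, except in the interaction, no overlap between the groups, as a condition for being named. Up to 4 called members of each list and all replication and repair members are named too, with no condition on level or overlap. Some genes that this rule names are not reported here. Uncalled genes of other lists were named after their values were seen. The gene lists and members were chosen with earlier results of these data known.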

Additional observations from a re-analysis of the deposited data

Results flagged for a closer look

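In 12 of the 195 groups of 4 values examined, 1 library lay far from the other 3, by a gap of more than 0.829 of the group's range; chance does this in about 1 in 20 groups. In 9 of the 12 it was replicate 4. PTA1 was at 11.2 CPM in HHQ replicate 4 against 5.23 to 6.17 in the others, Lhcf38 at 9.98 against 3.76 to 4.47, and MER2 at 40.6 against 17.7 to 20.3. In vehicle replicate 4 Lhcf24 was at 6899 CPM against 4645 to 4743, Lhcf33 at 4513 against 2921 to 3152, PYC1 at 2.58 against 1.89 to 2, Arf4-1 at 37.9 against 17.7 to 19.6, COG7 at 1.70 against 3.27 to 3.51, and POLE3 at 0.136 against 0 in each of the others. The remaining values were PKS5 at 1.25 CPM in vehicle replicate 3 against 3.64 to 3.74, SOD2A at 137 in the same library against 106 to 109, and CPS1 at 392 in HHQ replicate 2 against 308 to 322.

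The response to 10 ng/ml differed between 72 and 24 h, by the edgeR interaction test, in 14 of the 97 named genes for which it was examined, against 381 of all tested genes (1.44%). Most of the 97 were named for a large change at 24 h, a choice that favours a smaller response at 72 h, so the 2 shares are not comparable. On the log2 scale the 72 h response was smaller by these amounts among replication genes: POLE1 −3.24, POLD1-2 −2.91, POLD1-1 −2.75, POLA1 −2.73, POLD2 −2.45 and RFC1 −1.54. ADF differed by −1.32 and VPS46A by −1.22. Among genes with no symbol EMIHUDRAFT_115273 differed by −5.60, EMIHUDRAFT_449680 by −4.30 and EMIHUDRAFT_209016 by −4.08. The lowered genes EMIHUDRAFT_417528, EMIHUDRAFT_420021 and Lhcf39_2 differed by 2.20, 2.05 and 1.13, so that their fall was smaller at 72 h.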

How the results depend on the processing

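No called fold change of a named gene changed sign under the alternatives run; for other genes only counts were taken. With library totals alone 286 genes were lower with 10 ng/ml than with vehicle, 16 interactions were positive, 5282 genes were higher and 1157 lower at 100 than at 10 ng/ml, and 7864 higher and 791 lower at 10 than at 1 ng/ml. With the replicate block 2452 genes were lower with 10 ng/ml than with vehicle, and 249 interactions were positive and 520 negative. With it 4145 genes were higher and 4925 lower at 100 than at 10 ng/ml, and 5202 were lower at 10 than at 1 ng/ml. Between 10 and 1 ng/ml the pairs of like number correlated at only −0.0668 to 0.306, with 2 pairs over 0.1. The block ended no call of a named gene against vehicle. With only the groups compared, 22 interactions were positive and 201 negative, and 3822 genes were lower at 100 than at 10 ng/ml; with the block as well, 3189 genes were higher and 3632 lower against vehicle. At an adjusted p under 0.01 these were 1243 and 539. DESeq2 called 2330 higher and 1711 lower. Alternatives added after seeing the data gave 1162 genes higher at 100 than at 10 ng/ml with replicates 1 to 3 only, and 4495 lower at 10 than at 1 ng/ml without HHQ 10 replicate 4 and HHQ 1 replicate 1. The cause of these shifts was not tested.

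Leaving out 1 library gave 1436 to 2014 genes higher and 806 to 1089 lower against vehicle. Interactions numbered 30 to 74 positive and 240 to 355 negative; the positive count was 31 without vehicle replicate 3 at 24 h, 33 without HHQ replicate 2 at 24 h, and 30 and 35 without vehicle replicates 1 and 4 at 72 h. Between 100 and 10 ng/ml 1534 to 1989 were higher and 1616 to 2962 lower. Between 10 and 1 ng/ml 2603 to 4631 were higher and 1533 to 3816 lower, with 1687, 1540 and 1764 lower without HHQ 10 replicates 1, 2 and 3, and 1533 and 1772 without HHQ 1 replicates 2 and 4. Of the values of named genes against vehicle 1706 kept their side of the threshold, 108 lost the call, most often COG7 and MVK2 (13 each), and 3 gained it, all for Spo11. Genes at a few counts per library, POLE3 among them, are limited by depth.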
